A study of Mus musculus with 4 samples.

Results

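The Myc, Max and Mxd network was followed on 4 arrays of mouse cells derived from embryonic stem (ES) cells. Its members were chosen by name as Myc, Mycn, Mycl, Max, Mxi1, Mxd1, Mxd3 and Mxd4, which are 8 of 8251 genes measured. They have 9 of the 12422 tested probe sets, because Mycn has 2 and every other member has 1. RNA came from 2 populations with 2 arrays each, titled Hemangioblast and hCD4. All cells descend from a single ES line, Scl+/hCD4, in which human CD4 on the cell surface reports Scl, the blood transcription factor encoded by Tal1, and which was kept on inactivated STO feeder cells. Per the study text, embryoid bodies were grown with serum for 2.75 days, Flk-1+Scl+ cells were sorted from them as hemangioblasts, and cells of such embryoid bodies were replated to give blast colonies, which were picked and pooled.

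The labels disagree on which arrays hold which of these cells. The sample sources read hemangioblasts and ES cells, while the study text names the populations hCD4 and Blast. Among marker genes, the hemangioblast genes Etv2, Kdr and Gata2 were lower on the Hemangioblast arrays, as were the pluripotency genes Pou5f1 and Dppa5a. The myeloid genes Tyrobp, Csf1r, Spi1, Adgre1 and Ptprc and the red cell genes Hbb-bh1, Hba-a1, Hbb-y, Alas2, Hba-x and Epor were higher there, as were Tie1, Col3a1 and Acta2 (limma, adjusted p of 3.72e-05 to 0.0337 over these genes). Of the 12 alternative settings, Epor passed in 5, Hba-x in 7, Gata2 and Col3a1 in 8, Dppa5a in 9, Tie1 and Acta2 in 10 and Pou5f1 in 11, and the others in all 12. Dimmer probe sets of Pou5f1 (log2 change 0.94), Gata2 (0.74), Adgre1, Csf1r, Ptprc and Col3a1 did not pass. Tie1, Col3a1 and Acta2 were the only genes of their marker lists to pass. Of 6 endothelial genes 4 had a positive and 2 a negative change. Of 6 fibroblast and feeder genes these were 4 and 2, and of 5 smooth muscle genes 3 and 2. Kdr, which encodes Flk-1, averaged 609 ± 55.0 (SD, n = 2) on Hemangioblast arrays, below the 1814 ± 267 of the hCD4 arrays. Tal1 averaged 362 ± 41.2 and 646 ± 70.0 in the same order, with an adjusted p of 0.0513 by limma. The groups are therefore called by their array titles, and every change below is Hemangioblast minus hCD4. Values written as 2 against 2 give Hemangioblast arrays 1 and 2, then hCD4 arrays 1 and 2. No source says that a group's arrays came from separate cultures, so the spread behind each p-value is that of these arrays and may be technical. With RNA from many cells, fewer cells of a type and less RNA per cell cannot be told apart.

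Myc, Mycn and Mycl are transcription factors that bind DNA only as a pair with Max. The pair binds the E-box, a short palindromic DNA motif, and raises the transcription of genes for ribosome assembly, nucleotide synthesis and cell growth. The Mxd proteins and Mxi1 also pair with Max on the same motif, but recruit the Sin3 corepressor and histone deacetylases, and so oppose Myc. ES cells and early embryos rely on Myc and Mycn for growth and self-renewal, while Mxd genes are known from cells that leave the cell cycle and differentiate.

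Of the activating members, Mycn by its brighter probe set fell 3.48-fold on the Hemangioblast arrays and Myc fell 2.27-fold, and these were the 2 of 9 network probe sets past an adjusted p of 0.05 (limma, Benjamini-Hochberg over all probe sets). No network probe set passed in the other direction. Over the whole array 4.48% of probe sets passed, made up of 1.56% lower and 2.91% higher. The remaining 7 probe sets, including those of Max and all 4 antagonists, did not pass. Intensities are the authors' deposited values scaled to a common trimmed mean, and changes are on the log2(intensity + 16) scale, which makes the change of a dim gene smaller.

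Myc, the broadly expressed founding member of the family, had scaled intensities of 185 and 146 against 398 and 388. The groups did not overlap, and the hCD4 arrays lay closer to each other than the Hemangioblast arrays did. The means were 165 ± 27.8 (SD, n = 2) and 393 ± 7.13. The log2 change was -1.18 (SE 0.223, limma adjusted p = 0.0236, 95% interval -1.69 to -0.67). Without Hemangioblast array 2 the adjusted p was 0.0847, and without hCD4 array 1 or hCD4 array 2 it was 0.145 in each case. It was also above the threshold without scaling between arrays (0.0846) and when the variance prior had no intensity trend (0.0817).

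Mycn, the member best known from the early embryo and from neural precursors, stood at 317 and 130 against 817 and 689. The groups did not overlap, but the Hemangioblast arrays were far apart, the higher being 2.44 times the lower. The means were 224 ± 133 (SD, n = 2) and 753 ± 90.1, and the log2 change was -1.80 (SE 0.350, limma adjusted p = 0.0266, 95% interval -2.60 to -0.99). The size of the fall rested on which Hemangioblast array was used, at -2.39 without array 1 and -1.20 without array 2. Either fit drops the gap between the Hemangioblast arrays, so its SE was smaller, at 0.235 and 0.212 in the same order. Without hCD4 array 1 or hCD4 array 2 the adjusted p was 0.162 and 0.122, and it was 0.0527 with quantile normalization, 0.116 without scaling and 0.138 without an intensity trend.

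A second Mycn probe set was dim, brighter on average than 21.7% of all probe sets. It read 78.3 and 65.3 against 34.4 and 77.1, so the groups overlapped. Its log2 change was 0.35 (SE 0.389, limma adjusted p = 0.760), and its 95% interval of -0.54 to 1.25 lay above that of the brighter probe set, -2.60 to -0.99. The Mycn probe sets therefore disagree, and the difference between them was not tested.

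Mycl, the third activating member, was at 203 and 214 against 417 and 311. All Hemangioblast values lay below the hCD4 values, but the change missed the threshold (log2 change -0.74, SE 0.228, limma adjusted p = 0.130, 95% interval -1.27 to -0.22). Its adjusted p ran from 0.0588 to 0.441 over the 12 alternative settings.

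**Figure D1:**
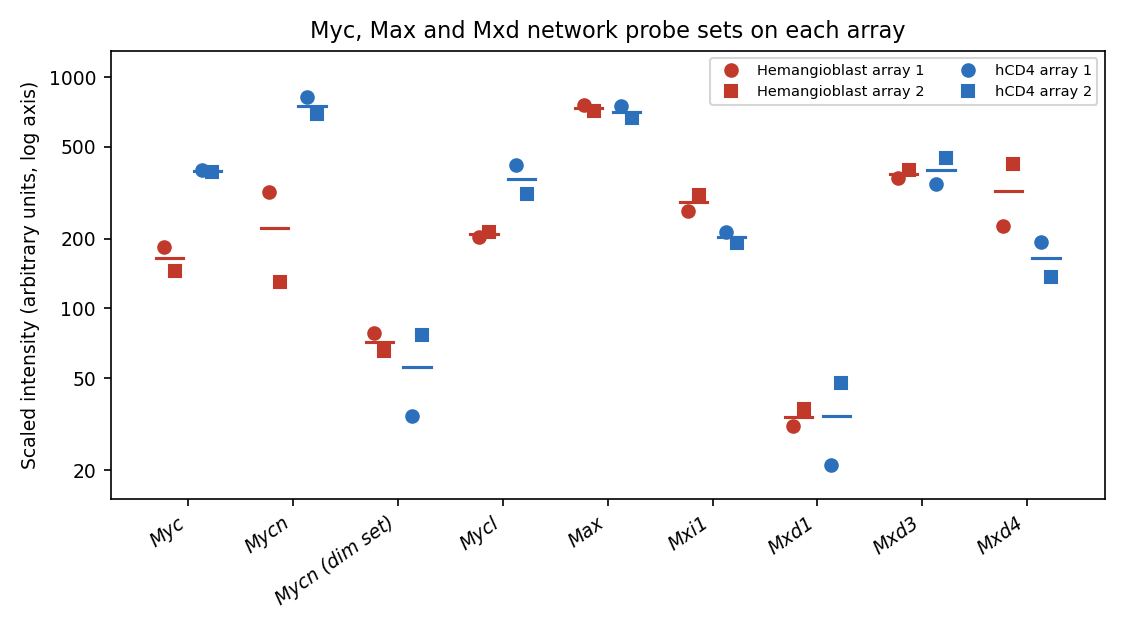
Scaled intensity (log axis, arbitrary units) of each network probe set on the Hemangioblast arrays (red) and hCD4 arrays (blue), with circles for replicate 1, squares for replicate 2 and bars for group means. Myc, the brighter Mycn probe set and Mycl are lower on both Hemangioblast arrays, Mxi1 and Mxd4 are higher on both, and the other 4 probe sets overlap.

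Max is the partner that the Myc proteins need and that the Mxd proteins and Mxi1 share. It was at 757 and 712 against 749 and 666. The groups overlapped, and the log2 change of 0.05 (SE 0.161, limma adjusted p = 0.934) had a 95% interval of -0.31 to 0.42. This is the narrowest interval of the 9 probe sets, and the direction turned with median scaling (-0.030) and without hCD4 array 2 (-0.028).

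Of the antagonists, Mxd4 and Mxi1 had higher values on both Hemangioblast arrays, without passing the threshold. Mxd4, an antagonist found in many differentiating tissues, was at 227 and 419 against 194 and 137. The groups did not overlap, yet 1 Hemangioblast array was 1.84 times the other, and the log2 change of 0.86 had an SE of 0.323 (limma adjusted p = 0.222, 95% interval 0.12 to 1.60). It was 1.28 without Hemangioblast array 1 and 0.44 without Hemangioblast array 2, with adjusted p of 0.0748 and 0.690. Mxi1, a close relative of the Mxd proteins, was at 264 and 310 against 215 and 192. Its groups did not overlap either, and the log2 change was 0.46 (SE 0.224, limma adjusted p = 0.373, 95% interval -0.05 to 0.98).

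The other 2 antagonists overlapped between groups. Mxd3, which unlike its relatives is known from cells in S phase, was at 365 and 397 against 344 and 449. Both Hemangioblast values lay between the hCD4 values (log2 change -0.04, SE 0.205, limma adjusted p = 0.962). Mxd1, known from maturing myeloid cells, was dim at 31.0 and 36.7 against 21.1 and 47.5, again with the Hemangioblast values between the others. It was brighter on average than 8.65% of probe sets, and its log2 change of 0.04 (SE 0.387, limma adjusted p = 0.986) left a 95% interval of -0.85 to 0.93. The directions of Mxd1 and Mxd3 turned under some settings. Myeloid markers were high on the Hemangioblast arrays, with 5 of 7 measured genes past the threshold (3.39% of all genes passed as higher) and a summed intensity of 5047 to 5360 against 578 to 618. The lowest myeloid marker value was 2.67, for Ptprc. The part of these cells in the values of the antagonists was not tested.

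In all, 5 of 9 network probe sets had no overlap between groups, 3 lower and 2 higher, where 44.4% of all probe sets did not overlap (19.7% lower and 24.8% higher). The median log2 change of the 9 was 0.04, and that of all probe sets was 0.04. An unadjusted p under 0.05 was found for 4 of the 9, those of Myc, Mycn, Mycl and Mxd4, and for 16.3% of all probe sets. The absolute change of the brighter Mycn probe set was larger than that of 98.4% of probe sets, that of Myc than 95.9% and that of Max than 12.6%.

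**Figure D2:**
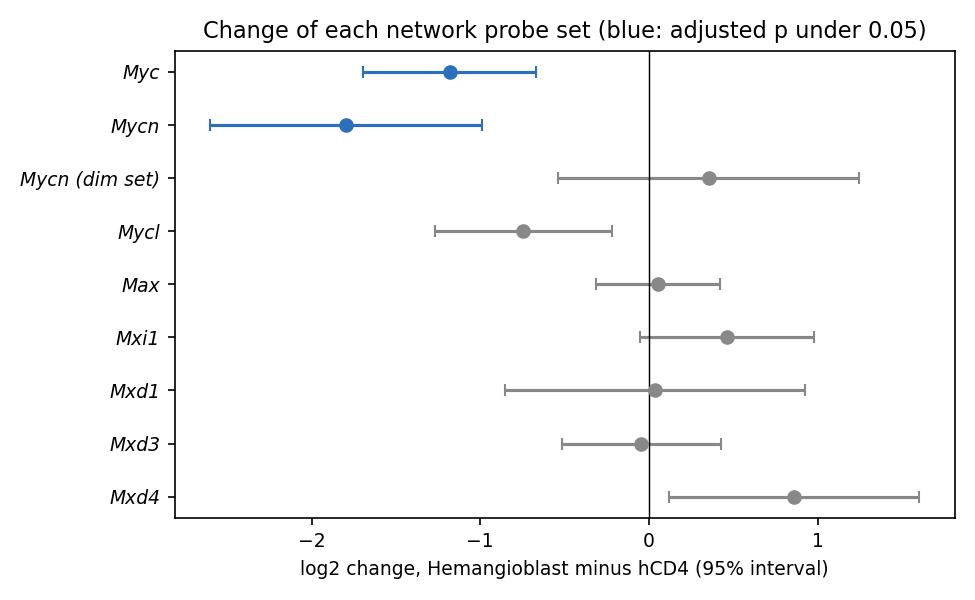
Log2 change of each network probe set, Hemangioblast minus hCD4, with its 95% interval from limma. The intervals of Myc and the brighter Mycn probe set (blue, adjusted p under 0.05) lie below 0, those of Mycl and Mxd4 also leave out 0 without passing the adjusted threshold, and the other 5 span it.

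Promoter sequence was taken from RefSeq (GRCm38.p6), whose table held 7 of the 8 members and not Myc. Each window runs from 250 bases before to 50 bases after an annotated gene start, and Mxi1 has several. Windows were searched on both strands for the E-box CACGTG, for the E2F motifs TTTGGCGC and TTTCCCGC, for TATAAA and for the GC box GGGCGG. These searches describe letters in a window and do not show binding. The 250 bases before the start are printed for Mycn, which fell by its brighter probe set, for Mycl, its neighbour in function with a different set of motifs, and for Mxd4, an antagonist that carries the motif the network itself binds. Capitals mark CACGTG, TTTGGCGC or TATAAA.
Mycn: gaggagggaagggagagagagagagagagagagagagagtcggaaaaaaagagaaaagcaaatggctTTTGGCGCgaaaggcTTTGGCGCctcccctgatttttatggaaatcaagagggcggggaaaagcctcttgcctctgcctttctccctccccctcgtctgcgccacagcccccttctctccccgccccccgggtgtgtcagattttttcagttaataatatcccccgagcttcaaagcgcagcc
Mycl: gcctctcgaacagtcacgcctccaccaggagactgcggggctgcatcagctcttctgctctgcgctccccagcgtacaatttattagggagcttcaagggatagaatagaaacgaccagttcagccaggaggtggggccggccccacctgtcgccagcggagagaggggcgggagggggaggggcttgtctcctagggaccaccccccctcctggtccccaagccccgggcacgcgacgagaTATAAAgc
Mxd4: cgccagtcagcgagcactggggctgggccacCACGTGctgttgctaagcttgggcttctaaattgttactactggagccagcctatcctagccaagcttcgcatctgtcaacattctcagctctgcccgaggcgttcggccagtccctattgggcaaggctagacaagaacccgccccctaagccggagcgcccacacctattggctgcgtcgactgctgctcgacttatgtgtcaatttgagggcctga
The Mycn stretch is chr12:12941837-12942086 on the minus strand, the Mycl stretch chr4:122995681-122995930 on the plus strand and the Mxd4 stretch chr5:34187711-34187960 on the minus strand.

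The motifs differed between these promoters. Mycn carried TTTGGCGC at 183 and at 168 bases before its start, a motif found in 0.514% of 32851 windows. The same motif was in 3 of 15 proliferation genes with a window, 1 of 21 genes activated by Myc and 0 of 18 cofactors. Mycl carried TATAAA 8 bases before its start, as did 13.6% of windows at any position, and no E-box or E2F motif. Mxd4 carried CACGTG 219 bases before its start. Max had CACGTG across its start, so that 2 of 7 members with a window (28.6%) held the E-box, against 8.09% of 27025 genes. GGGCGG was present in 6 of the 7, Max being the exception, and in 38.2% of all genes. That share is not particular to the members. The motif was in 94.4% of Myc and Mxd cofactors with a window, 93.3% of proliferation genes and 81% of genes activated by Myc. It was in 25% of myeloid and 33.3% of red cell markers. TTTCCCGC was in none of the members' windows and in 1.24% of genes.

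Other proteins of the same network were measured for 3 genes, Mnt, Mlx and Bmyc, and none passed or had an unadjusted p under 0.05. Mnt, a Max partner and repressor present in most cells, was at 534 and 274 against 287 and 283 (log2 change 0.41, SE 0.297, limma adjusted p = 0.601). The high value stood on Hemangioblast array 1 alone, and without that array the change was -0.054. Mlx, the Max-like protein that pairs with several Mxd proteins, was at 894 ± 155 and 916 ± 10.7 (SD, n = 2 each). Bmyc, a Myc relative without the DNA-binding part, was at 231 ± 34.9 and 282 ± 7.87.

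Among Myc and Mxd cofactors, 1 of 14 measured genes passed, as lower, beside 1.96% of all genes lower and 5.36% in either direction. It was Ruvbl2, an ATPase of the chromatin complexes that Myc recruits, at 1250 and 1127 against 1835 and 2439 (log2 change -0.83, SE 0.174, limma adjusted p = 0.0371). Its partner Ruvbl1 was at 1119 and 1104 against 1614 and 2091, with an adjusted p of 0.0527 by limma, and a second Ruvbl1 probe set had a log2 change of -0.12. The Sin3 corepressors, through which Mxd proteins act, had changes of opposite sign. Sin3a was at 519 and 469 against 745 and 774 (log2 change -0.61, limma adjusted p = 0.0889). Sin3b was at 1433 and 1160 against 778 and 851 (log2 change 0.65, limma adjusted p = 0.0714), while a second Sin3b probe set had a change of 0.06. The groups did not overlap for either gene, and neither change passed. The median log2 change of the 14 cofactors was -0.20, against 0.02 for all genes. The call of Ruvbl2 was lost without Hemangioblast array 2 (adjusted p = 0.0926), hCD4 array 1 (0.0706) or hCD4 array 2 (0.299), and with median scaling (0.0689), without scaling (0.118) and without an intensity trend (0.205).

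Regulators of the Myc gene and its mRNA had 1 of 8 measured past the threshold, where 5.36% of all genes passed (1.96% lower). Igf2bp1, an RNA-binding protein that protects Myc mRNA from decay, fell with Myc. It was at 618 and 590 against 1327 and 1411 (log2 change -1.16, SE 0.150, limma adjusted p = 0.00389). The groups were well apart and the arrays of each group close, though the adjusted p was 0.0606 without hCD4 array 2 and 0.0657 without an intensity trend. The other 3 genes with the smallest p-values did not pass. Nme2, an NDP kinase that was described as a Myc promoter factor, had a change of -0.50, the cell cycle factor E2f1 of 0.39 and the single-strand DNA binder Fubp1 of -0.27. Dimmer probe sets of 2 of these genes had larger changes, also without passing. For Fubp1 one was at 562 and 308 against 861 and 871 (log2 change -1.03, limma adjusted p = 0.0721) and another had a change of -0.19. The dimmer E2f1 probe set had a change of 0.995 (limma adjusted p = 0.272). Of 10 measured genes for the turnover of Myc protein, none passed. Those with the smallest p-values were the kinases Plk1 (-0.39), Gsk3a (-0.26) and Aurka (-0.26) and the phosphatase subunit Ppp2r5a (0.30), with adjusted p from 0.227 to 0.529 by limma. An unadjusted p under 0.05 was found for 1 of these 10 genes and for 18.2% of all genes. The 2 dimmer Plk1 probe sets had changes of -0.21 and -0.048.

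Genes that Myc is known to activate were mostly lower on the Hemangioblast arrays. Of 25 measured, 22 had a negative change and 3 a positive one, whereas 3914 of all 8251 genes had a negative change. The list was chosen with earlier results of these data known. A negative change was also found for 11 of the 14 cofactors and 12 of the 15 proliferation genes. The median log2 change of the 25 was -0.42, against 0.02 for all genes. Over the 12 alternative settings 21 to 23 of the 25 were negative and the median ran from -0.51 to -0.32. Past the threshold were 3 of 25, all lower, beside 1.96% of all genes lower and 5.36% in either direction.

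The 3 genes that fell serve nucleotide synthesis and ribosome assembly. Cad, which encodes the enzyme for the opening steps of pyrimidine synthesis, was at 699 and 688 against 1384 and 1464 (log2 change -1.02, SE 0.147, limma adjusted p = 0.00686). Nop56, a core protein of the particles that methylate ribosomal RNA, was at 2209 and 1905 against 3109 and 3887 (-0.76, SE 0.164, limma adjusted p = 0.0400). Ppan, a nucleolar protein of large subunit assembly, was at 237 and 236 against 441 and 436 (-0.85, SE 0.192, limma adjusted p = 0.0482). The groups did not overlap for any of them, and Ppan had the closest arrays within groups. The polyamine enzyme gene Srm was at 1995 and 1961 against 2837 and 3637, with an adjusted p of 0.0515 by limma. Second, dim probe sets of Cad and Nop56 had log2 changes of -0.06 and -0.67 and did not pass.

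These calls depended on the arrays used. None of the 25 genes passed without hCD4 array 1 or without hCD4 array 2, 1 passed without Hemangioblast array 2 and 7 passed without Hemangioblast array 1. None passed without an intensity trend, 1 without scaling, and 2 with an added constant of 64. With dim probe sets left out 7 were lower and 1 higher, and with an added constant of 1 the count was 7 lower.

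**Figure D3:**
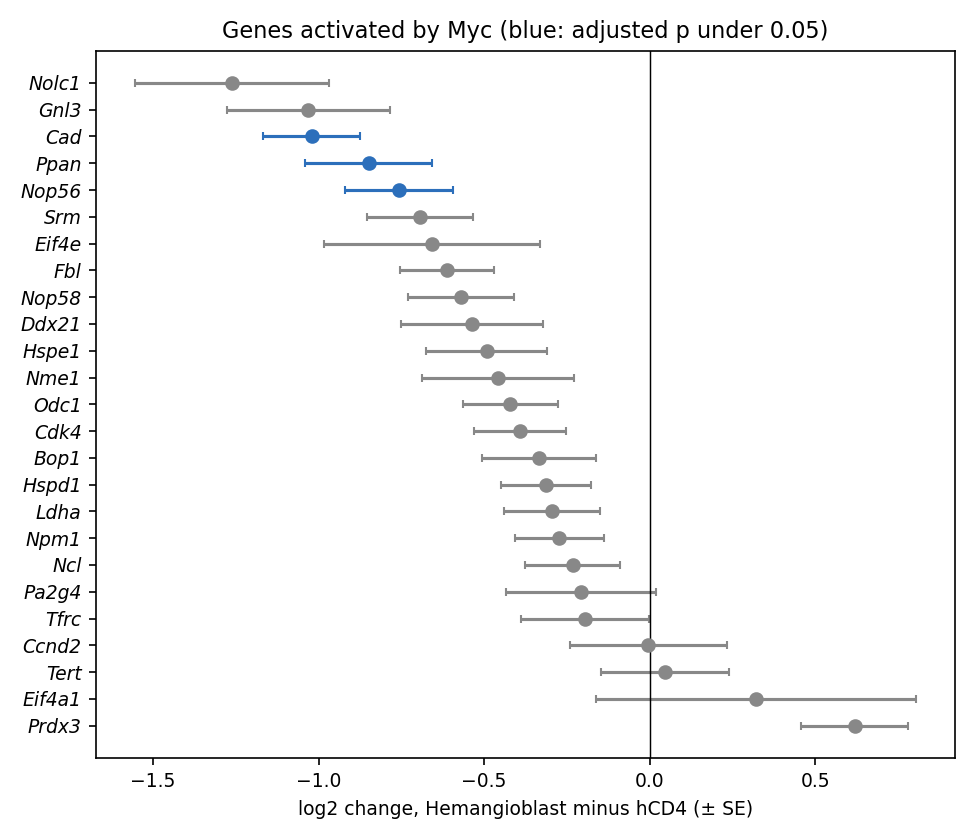
Log2 change (± SE) of the 25 measured genes that Myc is known to activate, Hemangioblast minus hCD4, ordered by change. Of these, 22 lie below 0 and 3 above, and Cad, Nop56 and Ppan (blue) have an adjusted p under 0.05.

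The E-box CACGTG was in a promoter window of 6 of 21 activated genes with a window (28.6%), against 8.09% of all genes. The 6 were Ldha, Cdk4, Nme1, Eif4e, Eif4a1 and Hspd1, and none of Cad, Nop56 and Ppan was among them. Myc sites in these genes can also lie outside the window, for instance in introns.

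Of 7 measured genes that Myc is known to repress, 1 rose, where 3.39% of all genes rose. Cdkn1a, which encodes the cell cycle inhibitor p21, was at 866 and 696 against 386 and 299 (log2 change 1.16, SE 0.203, limma adjusted p = 0.0171). The groups did not overlap, and a second Cdkn1a probe set had a change of 0.49 (adjusted p = 0.300 by limma). The call was lost without Hemangioblast array 1 (adjusted p = 0.0622), without hCD4 array 2 (0.132), without scaling (0.0970) and without an intensity trend (0.109). The growth arrest gene Gas1 had a change of -0.73 (limma adjusted p = 0.225), Gadd45a of 0.16 and the myeloid factor Cebpa of -0.03. Of the 7 genes, 3 had a positive and 4 a negative change.

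Of 15 measured proliferation genes none passed, 6 had an unadjusted p under 0.05 and 12 had a negative change, where 18.2% and 47.4% of all genes did, and the median log2 change was -0.16. Their summed intensity was 20406 and 19565 against 23060 and 23028. The replication helicase gene Mcm2 was at 812 and 737 against 1227 and 1225 (limma adjusted p = 0.0502), Rrm2 had a change of -0.68 and Mcm7 of -0.50, while Mki67 had a change of 0.48 (0.34 by a dim probe set). The counts of marker genes past the threshold that follow stand beside 1.96% lower and 3.39% higher among all genes. The summed level of pluripotency markers also differed between groups, at 4199 and 4277 against 7074 and 5435, with 2 of 8 genes past the threshold. Much of each sum was Esrrb, at 3343 and 3476 against 3165 and 3579. Of the 8 genes 7 had a negative change, and the median log2 change was -0.62. The hCD4 arrays differed from each other, with Pou5f1 at 104 and 144 against 1526 and 585. Dppa5a was at 310 and 169 against 1397 and 745. The lowest pluripotency marker value was 20.2, for Tdgf1. Red cell markers summed to 37149 and 39584 against 12772 and 13490, with 6 of 7 past the threshold. The lowest red cell marker value was 112, for Alas2. Hemangioblast markers summed to 3020 and 3415 against 5782 and 7045, with 3 of 6 lower. Fibroblast and feeder markers summed to 1734 and 2103 against 1709 and 1370, with 1 of 6 past the threshold. Endothelial markers summed to 4145 and 3513 against 2918 and 3365, with 1 of 6 past it. Smooth muscle markers summed to 866 and 727 against 1076 and 843, with 1 of 5 past it. The part of these shifts in the changes of Myc, Mycn and their activated genes was not tested.

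The genes nearest to Myc and Mycn in profile over the 4 arrays were found from the root mean square difference of centred log2 values, among 5608 bright probe sets with 1 symbol. For Myc these were Fn1 (difference 0.0401), which encodes fibronectin, Fkbp9 (0.0416) and the fatty acid elongase gene Elovl6 (0.0458). Fn1 was at 2538 and 2002 against 5265 and 5411. For the brighter Mycn probe set they were the linker histone gene H1f10 (0.172), Amotl2 (0.201) and the basement membrane collagen gene Col4a1 (0.233). H1f10 was at 389 and 190 against 842 and 764, with the same wide gap between the Hemangioblast arrays as Mycn. The choice by profile fixes that these genes were lower too, so their changes are given no test.

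**Figure D4:**
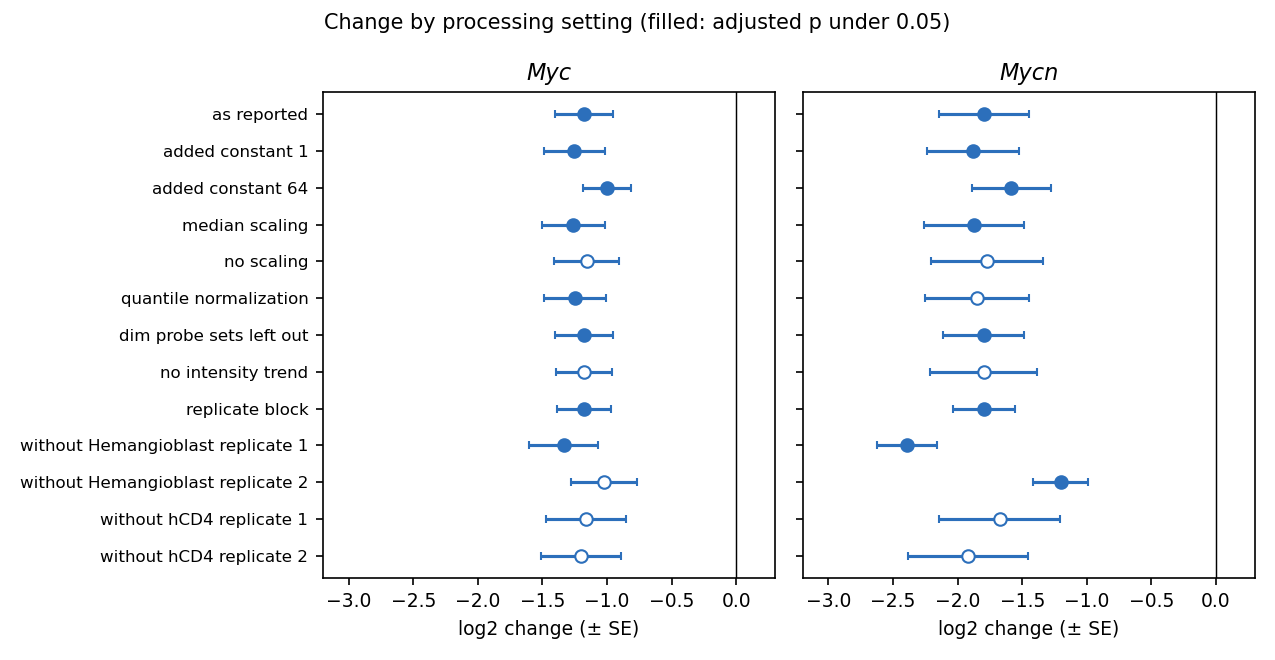
Log2 change (± SE) of Myc and of the brighter Mycn probe set under the reported setting and 12 alternatives, with filled circles where the adjusted p is under 0.05. All values lie below 0, and the adjusted p passes under 7 of 12 alternatives for each gene. For Mycn these include the fits without a Hemangioblast array, which drop the gap between those arrays.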

How the data were processed

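Single-colour arrays with biotin label were run on total RNA, of which 20 ug per sample was reverse transcribed, per the labels. The authors deposited linear intensities, 1 for each probe set on each array, and how they were made is not given in the sources used here. All 4 value columns were used. Of 12488 probe sets, 66 control probe sets were left out. Arrays were scaled to one trimmed mean (2% at each end, factors 0.936 to 1.09), and log2(intensity + 16) was fitted with limma 3.58.1 in R 4.3.3 (intensity trend, 2 arrays per group, two-sided, 2 residual and 6.18 prior degrees of freedom). The fit was tested on 20 simulated data sets, each with 200 changed probe sets above the median intensity. At an adjusted p under 0.05 it recovered 15.2% of 1.5-fold, 73.7% of 2-fold and 99.9% of 4-fold changes. Most simulated 1.5-fold changes were therefore missed. Simulated probe sets of like intensity were all given the same spread, the running median of the observed ones. Real probe sets differ in spread, so the recovered shares may be too high for them. The number of arrays limits the precision: the median SE of a log2 change was 0.27. An exact permutation test of 2 against 2 cannot give p below 0.333 and was not used. Adjustment was by Benjamini-Hochberg over 12422 probe sets.

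Probe sets were named from the platform annotation, which gives 1 symbol for 10833, several for 396 and none for 1193 (none of those with several was named). A listed gene is represented by its brightest probe set (mean log2). Deposited medians ran from 165 to 197, and log2 values correlated at 0.961 and 0.963 within groups and 0.921 to 0.940 between groups. The 3' to 5' Gapdh ratio was 1.33 on Hemangioblast array 1 and 1.03 to 1.13 on the other arrays. Members, lists and motifs were chosen with earlier results of these data known. Named genes are all members, in every other list the genes past the threshold and up to 4 with the smallest adjusted p, Kdr and Tal1, and the 3 genes nearest in profile to each member that passed. Of the cell type marker lists only genes past the threshold, Kdr and Tal1 are given, with Tdgf1 as the lowest pluripotency value and Esrrb as the brightest pluripotency marker. The activated genes with an E-box are named for that motif, whatever their values. Motifs were settled after the windows had been scanned. No gene coordinates are given beyond RefSeq's promoter windows. The alternatives were added constants of 1 and 64, median, quantile and no scaling, leaving out probe sets with a mean under 100 in both groups, no trend, a replicate block and leaving out each array. Plots were made in Python 3.11.15 (matplotlib 3.10.9).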

Additional observations from a re-analysis of the deposited data

How the results depend on the processing

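Under the 12 alternatives Myc, the brighter Mycn probe set and Mycl were lower and Mxi1 and Mxd4 higher on the Hemangioblast arrays each time. The count of network probe sets past the threshold, 2 as reported, was 0 without scaling and without an intensity trend, 1 with quantile normalization, and 0 to 2 with 1 array left out (0 without either hCD4 array, 1 without Hemangioblast array 2). The log2 change of Myc without scaling was -1.16 (adjusted p = 0.0846) and without a trend -1.18 (0.0817), and with 1 array left out it ran from -1.34 to -1.02. That of Mycn was -1.77 without scaling (0.116), -1.85 with quantile normalization (0.0527) and -1.80 without a trend (0.138), and ran from -2.39 to -1.20 with 1 array left out. The count over all probe sets, 556 as reported, was 272 without scaling (222 higher and 50 lower, against 362 and 194), 882 of 8726 with dim probe sets left out, 220 without a trend (188 and 32) and 219 to 517 with 1 array left out (370 without Hemangioblast array 2, 268 without hCD4 array 1 and 219 without hCD4 array 2). Members close to 0 turned in sign without passing. Max was -0.030 with median scaling and -0.028 to 0.14 with 1 array left out. Mxd1 was -0.023 with median scaling, -0.17 with quantile normalization and -0.35 to 0.43 with 1 array left out. Mxd3 ran from -0.23 to 0.14 and the dim Mycn probe set from -0.088 to 0.80 with 1 array left out. With 1 array left out Mnt ran from -0.054 to 0.87, Mlx from -0.22 to 0.13, Gadd45a from -0.087 to 0.41 and Cebpa from -0.23 to 0.17, and with quantile normalization Mlx was 0.015 and Cebpa 0.026. Leaving out an array leaves 1 in its group, which is then assumed to vary like the other group. For the other settings the cause of these shifts was not tested. The titles give both groups the replicate numbers 1 and 2, but nothing says that a number pairs arrays, and the differences of array 1 and 2 correlated between groups at -0.0078 over all 12422 probe sets and at 0.13 over the 8366 with a mean above 100. With the replicate block the adjusted p was 0.0180 for Myc and 0.00578 for Mycn, and 2 network probe sets passed. A dim probe set such as that of Mxd1 limits what can be seen of a change.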
